A study of Chelonus formosanus with 6 samples.

Results

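The transcripts described here are named after protein families with members that carry or hand over odorants, pheromones, sterols and other lipids, some around odorant receptors. The species is Chelonus formosanus, a braconid wasp that parasitises moth eggs and larvae. What the proteins bind in this wasp, and where in the head, was not tested. The series sequenced poly(A) RNA of heads from 3 female and 3 male libraries, all labelled day 1 and separated by sex alone, with no treatment or allele named. Reads had been assembled without a genome into 41986 unigenes, each a cluster of related transcripts used in place of a gene. The labels do not say whether a library came from 1 animal or a pool, so a p-value here reflects only how far these samples spread, and that spread may be technical.

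Unigenes were taken by the words of their protein description: odorant-binding, pheromone-binding, chemosensory protein, ejaculatory bulb-specific protein, NPC2, epididymal secretory protein E1, takeout, sensory neuron membrane protein, scavenger receptor class B, lipocalin and apolipoprotein D. These words matched 36 unigenes. A vertebrate best hit removed 7 and a fixed list of IDs removed 2, which left 27 carrier unigenes of 41986 in all. They comprised 5 odorant-binding proteins, 4 chemosensory proteins, 1 NPC2 homolog, 3 takeout proteins, 7 sensory neuron membrane or scavenger receptor class B proteins and 7 lipocalins of the apolipoprotein D kind. The removed IDs are unigenes with large sex differences, so the 27 are not the whole of these families and their counts leave out those members.

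Insect olfactory neurons lie in sensilla filled with a lymph, and odorant-binding proteins are small soluble proteins secreted into that lymph by support cells, where many carry hydrophobic odorants towards receptors. Chemosensory proteins, NPC2 and takeout proteins are further small secreted families that bind lipids or other hydrophobic ligands, though many members act outside olfaction. Sensory neuron membrane protein 1 (SNMP1) is a CD36-type membrane protein of olfactory neurons that is needed for the response to some lipid pheromones in Drosophila and moths. The odorant receptor coreceptor, Orco, pairs with the odorant receptors to form the channel.

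Library totals lay between 17937390 and 19517887 counts, and each library had counts for 96.3% to 97.8% of all unigenes. A filter on low counts left 21196 unigenes, which were tested with edgeR's quasi-likelihood test of female minus male heads, with Benjamini-Hochberg adjustment over all of them. A unigene was called at an adjusted p under 0.05. Levels are given as TPM, which accounts for length and depth, or as CPM, library-scaled counts with TMM factors. CPM pairs are means ± SD over 3 libraries per sex. As checks of the tissue label, photoreceptor markers summed to 16091.6 to 17885.4 CPM in females and 17152.5 to 18693.7 CPM in males, and neuron markers to 1430.9 to 1459.6 CPM in females and 1301.7 to 1422.8 CPM in males. Glial transporters gave 1084.5 to 1188.4 CPM in females and 1208.6 to 1297.3 CPM in males, and no unigene was named for the glial factor repo. Of these lists 1 of 19 photoreceptor and 1 of 13 neuron unigenes tested were called, both in the female direction, and 0 of 7 glial ones, of which 2 had an unadjusted p under 0.05. Over all unigenes tested 2.80% were called, and 12% had an unadjusted p under 0.05. Blood cell markers stayed low, at 59.8 to 66.8 CPM in females and 60.1 to 62.4 CPM in males.

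Of the 27 carrier unigenes 26 could be tested, and 8 were called, 5 higher in females and 3 higher in males. That is 30.8% of those tested, where 2.80% of all unigenes tested were called, 1.69% higher in females and 1.11% higher in males. With vertebrate hits left out of the table as well, 9 carriers (34.6%) and 4.02% of all unigenes were called. Carriers also had a higher median level (39.3 TPM, against 6.81 for all unigenes tested), and no share among unigenes of like level was computed. The 8 were odorant-binding protein 10, one takeout, SNMP1, one scavenger receptor and one apolipoprotein D in the female direction, and general odorant-binding protein 56d and both unigenes named odorant-binding protein 18 in the male direction. Libraries of the sexes did not overlap in CPM for 14 of the 26, or 53.8%, where 17.3% of all unigenes tested did not. The median log2 difference of the 26 was 0.16 and that of all unigenes -0.000078, with 16 carriers above 0 and 10 below. An unadjusted p under 0.05 was found for 17 (65.4%), and for 12% of all unigenes tested.

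The filter passed 2 of the 26 through the male libraries alone, an odorant-binding protein 18 and an SNMP2-like unigene, whose difference that choice in part fixes. Among the other 24 there were 7 calls, 5 higher in females and 2 in males. By the FDR of the authors' deposited table, 12 of the carriers were under 0.05 and 5 were marked significant. Those marked were SNMP1, 56d, both odorant-binding protein 18 unigenes and the SNMP2-like unigene. The shares of all unigenes by these 2 criteria are not given here, and the share called by edgeR is no background for them. Of the 8 called here, 4 differed by at least 2-fold.

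**Figure D1:**
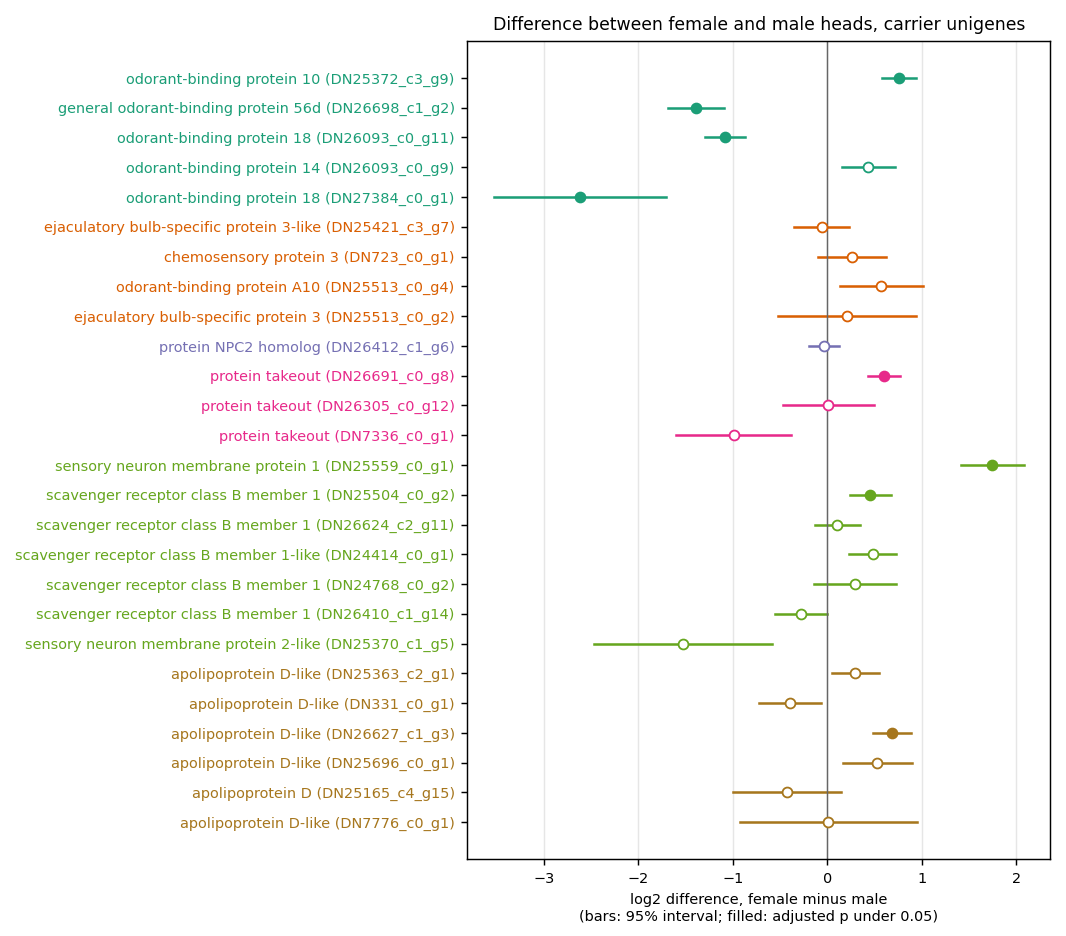
Log2 difference (female minus male, horizontal axis) of each tested carrier unigene, with its 95% interval as a bar, grouped by family. Filled points mark the 8 with an adjusted p under 0.05, of which 5 lie above 0 and 3 below.

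Carriers had a higher median level than the unigenes of the whole assembly. Their median of mean TPM over the 6 libraries was 39.3, against 6.81 for all unigenes tested, and 7 lay in the top 1% of the 41986. Those 41986 include 12947 unigenes with a vertebrate best hit, a kind removed from the carriers. Such unigenes held only 3.13% to 3.72% of the counts of a library. The levels and lengths of all unigenes given here were not recomputed without them. Mean levels ran between 1.71 and 16090 TPM. Their printed lengths lay between 288 and 4229 bases with a median of 1135, against 468 for all unigenes. The best hit came from a braconid wasp for 23 of the 27 and from the genus Microplitis for 16, and 22 held a named protein domain. A Trinity component, a group of unigenes with shared sequence, was shared by 2 carriers in 3 cases. Reads can be divided wrongly within such a group, and no sequence was used here to set near-identical copies apart.

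**Figure D2:**
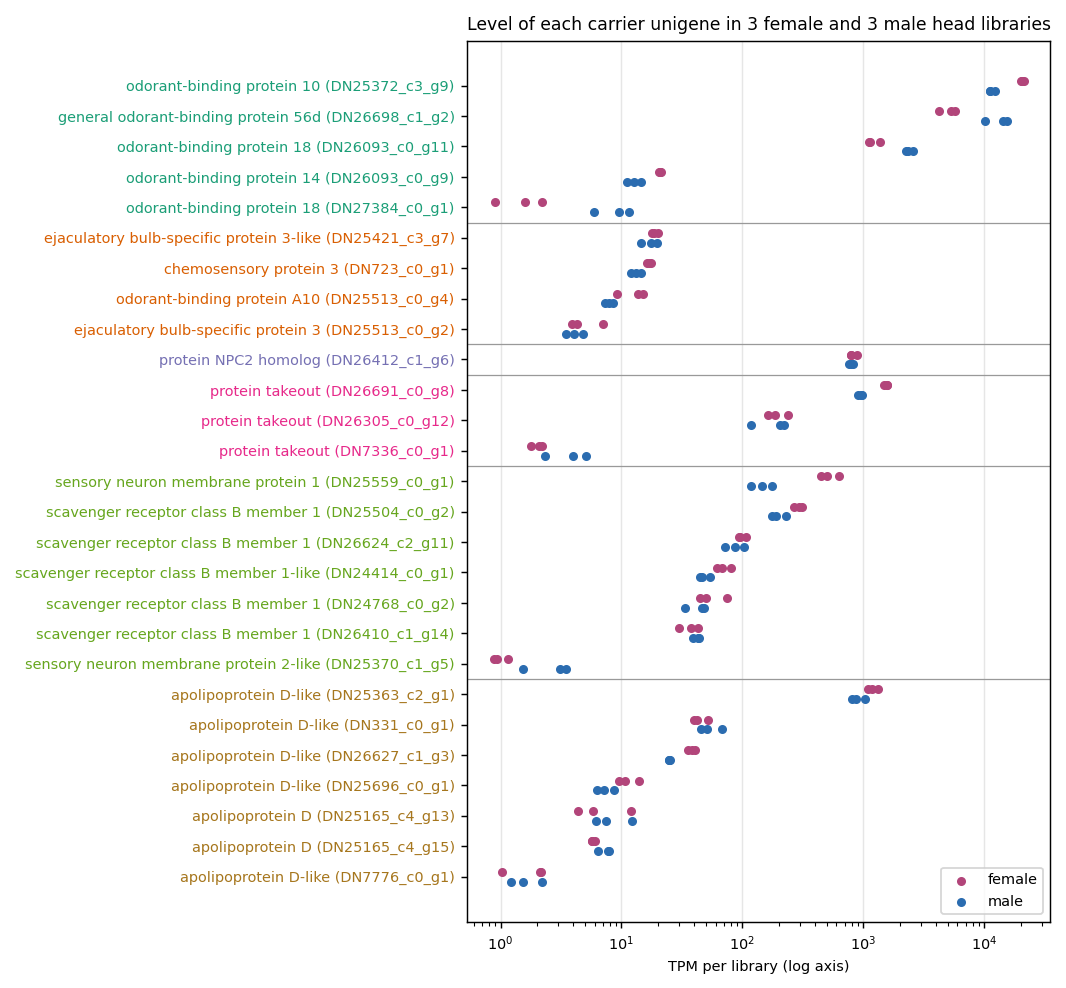
TPM of the 27 carrier unigenes (rows, by family) in each of the 3 female and 3 male libraries, on a log axis, with a point per library. Odorant-binding protein 10 and 56d lie at the far right in all 6 libraries, while several carriers sit near 1 to 10 TPM.

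The odorant-binding proteins moved in both directions. Of 5 unigenes 1 was called in the female direction and 3 in the male direction. The sexes did not overlap in CPM in any of the 5, where 17.3% of all unigenes tested did not overlap. For 1 of the 5, the rare TRINITY_DN27384_c0_g1, the filter passed it through the male libraries alone, which in part fixes that outcome. Odorant-binding protein 10 (TRINITY_DN25372_c3_g9, nearest to Cotesia chilonis) had 21278.69, 20588.28 and 20239.58 TPM in females, against 12229.24, 11119.06 and 11057.73 TPM in males. Every female library lay above every male library, and replicates were close, with a coefficient of variation of 3.36% in females and 3.58% in males. Its fitted difference was 0.76 on the log2 scale (SE 0.083, 95% interval 0.57 to 0.94), or 1.69-fold, with an adjusted p of 0.00053 by edgeR. It ranked first, second and first by TPM among all unigenes in females, and 4, 5 and 4 in males. It was also the only odorant-binding member with the PBP/GOBP domain that gives the family its name.

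General odorant-binding protein 56d (TRINITY_DN26698_c1_g2, nearest to Microplitis demolitor), named after a Drosophila binding protein, went the other way. It had 5681.38, 5304.30 and 4239.11 TPM in females, against 14387.92, 15292.93 and 10230.80 TPM in males. The lowest male library thus lay well above the highest female library. It ranked 10, 12 and 18 by TPM in females, and 2, 2 and 5 in males. Its CPM averaged 1482 ± 222 in females and 3884 ± 531 in males, a log2 difference of -1.39 (SE 0.135, 95% interval -1.69 to -1.09), or 2.62-fold higher in males, with an adjusted p of 0.00021 by edgeR. An apolipophorins unigene, a lipid carrier of the blood, shares its Trinity component (TRINITY_DN26698_c1_g4) and was 1.36-fold higher in males (3717 ± 356 CPM in female heads, against 5048 ± 365 CPM in male heads, with an adjusted p of 0.046 by edgeR). The 56d unigene held no named domain, and summed with its component the log2 difference was -0.77. The shared component's part in the 56d values was not tested.

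These opposite differences changed which of the pair led. The TPM of odorant-binding protein 10 over that of 56d was 3.75, 3.88 and 4.77 in females, against 0.85, 0.727 and 1.08 in males. In females it led in all 3 libraries, and in males 56d led in 2 of 3. The summed TPM of the pair was 26960, 25893 and 24479 in females, against 26617, 26412 and 21289 in males, so the sexes overlapped in the sum. All 5 odorant-binding unigenes together gave 27013 ± 1123 TPM in females and 27188 ± 3124 TPM in males (SD, n = 3 each), a ratio of 0.994. Odorant-binding protein 10 took 75.6%, 76.2% and 78.2% of that sum in females, against 42.2%, 38.3% and 46.9% in males. The 56d unigene took 20.2%, 19.6% and 16.4% in females, against 49.7%, 52.7% and 43.4% in males. Odorant-binding unigenes outside the 27, left out by ID or by spelling, are not in these sums. The deposited TPM did not follow the printed lengths for this pair. A CPM stood for 3.61, 3.52 and 3.66 TPM of odorant-binding protein 10 in females and 3.46, 3.36 and 3.3 in males, and for 3.5, 3.32 and 3.46 TPM of 56d in females and 3.46, 3.62 and 3.13 in males, although their lengths are 547 and 1099 bases.

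**Figure D3:**
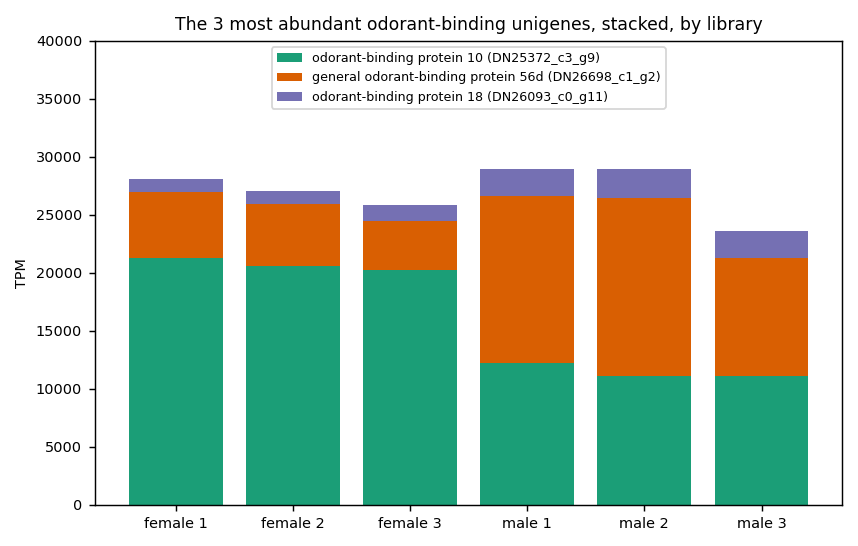
Stacked TPM (vertical axis, from 0) of the 3 most abundant odorant-binding unigenes in each library, females on the left and males on the right. Odorant-binding protein 10 makes up most of each female bar, 56d the larger share in males 1 and 2, and total heights overlap between the sexes.

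Odorant-binding protein 18 (TRINITY_DN26093_c0_g11, nearest to Microplitis mediator) had 1145.28, 1112.38 and 1383.12 TPM in females, against 2340.29, 2571.29 and 2267.98 TPM in males. No libraries overlapped, and the log2 difference was -1.08 (SE 0.095, 95% interval -1.29 to -0.87), or 2.11-fold higher in males, with an adjusted p of 0.0001 by edgeR. A second unigene with the same description, TRINITY_DN27384_c0_g1, was rare, with 9, 7 and 4 counts in females against 26, 50 and 44 counts in males. It was called 6.15-fold higher in males (log2 -2.62, SE 0.411, adjusted p = 0.0055). It is one of the unigenes that the filter passed through males alone. Whether these 2 unigenes are 1 gene split by the assembly cannot be settled without sequence. Odorant-binding protein 14 (TRINITY_DN26093_c0_g9, nearest to Meteorus pulchricornis) shares the component of the abundant odorant-binding protein 18. It had 21.16, 20.83 and 20.55 TPM in females, against 11.12, 12.75 and 14.55 TPM in males, without overlap, but its log2 difference of 0.43 (SE 0.125) missed the threshold with an adjusted p of 0.125 by edgeR.

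No chemosensory protein was called among 4 tested, all of which held the OS-D domain of that family. Their sum was 53.4 ± 4.85 TPM in females and 42.4 ± 1.27 TPM in males (SD, n = 3 each), a small fraction of the odorant-binding sum. That sum covers only the unigenes matched by description. Another unigene with the OS-D domain, TRINITY_DN22704_c0_g2, alone averaged 15537.6 TPM in females and 12697.7 TPM in males. The highest, an ejaculatory bulb-specific protein 3-like unigene (TRINITY_DN25421_c3_g7) named after a Drosophila protein of the male reproductive tract, had 18.48, 19.96 and 17.95 TPM in females, against 14.42, 17.56 and 19.56 TPM in males. The sexes overlapped, and its log2 difference was -0.061 (SE 0.129, adjusted p = 0.923 by edgeR). Chemosensory protein 3 (TRINITY_DN723_c0_g1) had 16.28, 17.43 and 16.97 TPM in females, against 14.45, 13.18 and 11.91 TPM in males, with a log2 difference of 0.26 (SE 0.161, adjusted p = 0.616 by edgeR). The odorant-binding protein A10 homolog (TRINITY_DN25513_c0_g4), a chemosensory protein despite its name, had 9.13, 14.99 and 13.71 TPM in females, against 7.26, 7.90 and 8.51 TPM in males. Its log2 difference was 0.57 (SE 0.197, adjusted p = 0.233 by edgeR). Without female 1, the lowest of the females, the difference was 0.76 with an adjusted p of 0.031 by edgeR. It stayed uncalled in the other 12 of 13 alternatives, among them 0.42 without female 2 (adjusted p = 0.703 by edgeR). The last, TRINITY_DN25513_c0_g2, had 3.92, 4.25 and 7.10 TPM in females, against 4.84, 4.03 and 3.47 TPM in males, with overlapping libraries.

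The single unigene named as an NPC2 homolog (TRINITY_DN26412_c1_g6), of a family of sterol-binding proteins, was abundant and close in level between the sexes. It had 883.17, 786.76 and 795.91 TPM in females, against 795.36, 828.69 and 757.71 TPM in males. Its CPM averaged 631.8 ± 9.55 in females and 647.7 ± 21.6 in males. The log2 difference was -0.036 (SE 0.072, adjusted p = 0.92 by edgeR), with a 95% interval of -0.20 to 0.12. That interval leaves out differences of the size found for SNMP1 or 56d. A unigene with the same domain but another description, MD-2-related lipid-recognition protein (TRINITY_DN24654_c1_g14), is not among the carriers. It averaged 1392.7 TPM in females and 1079.6 TPM in males, without overlap in CPM. Its log2 difference of 0.27 was not called (adjusted p = 0.0805 by edgeR).

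The takeout proteins belong to the juvenile hormone-binding protein family, and takeout itself is known in Drosophila for roles in feeding and male courtship. The most abundant of the 3 (TRINITY_DN26691_c0_g8, nearest to Diachasma alloeum) had 1473.52, 1559.42 and 1568.70 TPM in females, against 953.42, 972.23 and 902.42 TPM in males. All females lay above all males. CPM averaged 1018 ± 38.6 in females and 672.2 ± 15.4 in males, a log2 difference of 0.60 (SE 0.075, 95% interval 0.43 to 0.77), with an adjusted p of 0.0013 by edgeR. The next takeout unigene (TRINITY_DN26305_c0_g12) had 187.75, 238.34 and 161.60 TPM in females, against 205.69, 117.31 and 219.31 TPM in males. It varied within both sexes, with a coefficient of variation of 21.4% in females and 31.6% in males, and its log2 difference was 0.012 (SE 0.218, 95% interval -0.47 to 0.50). The rarest, TRINITY_DN7336_c0_g1, had 39, 51 and 50 counts in females against 94, 114 and 58 counts in males. Its log2 difference of -0.99 (SE 0.272) missed the threshold with an adjusted p of 0.103 by edgeR. DESeq2 called it higher in males (adjusted p = 0.034), and so did edgeR without male 3, the lowest of the males, at -1.23 (adjusted p = 0.019).

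Family sums of takeout, 1732 ± 68.4 TPM in females and 1127 ± 34.4 TPM in males, followed the first unigene, which made up 88.6% of the female sum and 83.6% of the male sum. Without it the summed log2 difference in CPM was 0.0094, against 0.52 with it. These sums cover only the 3 unigenes named takeout, of 16 with the juvenile hormone-binding protein domain. Among the others, TRINITY_DN9608_c0_g1 averaged 2018.8 TPM in females and 1758.5 TPM in males (log2 0.098). TRINITY_DN10949_c0_g1 averaged 1330.8 TPM in females and 1444.5 TPM in males (log2 -0.22). Neither was called.

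SNMP1 (TRINITY_DN25559_c0_g1, nearest to Microplitis mediator) showed the largest difference among the carriers called higher in females. It had 633.98, 501.56 and 446.33 TPM in females, against 175.60, 145.41 and 118.43 TPM in males. The lowest female library was well above the highest male library, although values within each sex spread by a coefficient of variation of 18.3% in females and 17.9% in males. CPM averaged 794.2 ± 145 in females and 236.9 ± 42.4 in males. The log2 difference was 1.75 (SE 0.153, 95% interval 1.41 to 2.08), or 3.35-fold, with an adjusted p of 9.8e-05 by edgeR. Summed with the other unigenes of its component the difference was 1.17.

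Orco (TRINITY_DN25907_c2_g3), which marks the neurons that use odorant receptors, was higher in females as well. It had 240.76, 230.36 and 208.83 TPM in females, against 90.7, 91.83 and 91.18 TPM in males, a log2 difference of 1.23 (SE 0.082), or 2.35-fold, with an adjusted p of 1.06e-05 by edgeR. Summed with the other unigenes of its component, the log2 difference of Orco was 0.46 (adjusted p = 0.00086 by edgeR). The TPM of SNMP1 over that of Orco was 2.63, 2.18 and 2.14 in females, against 1.94, 1.58 and 1.3 in males. The ratio did not overlap between the sexes, and with 3 libraries each it was given no test. In bulk RNA of heads, more cells of a type and more RNA per cell cannot be told apart, and this applies to every carrier named here.

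**Figure D4:**
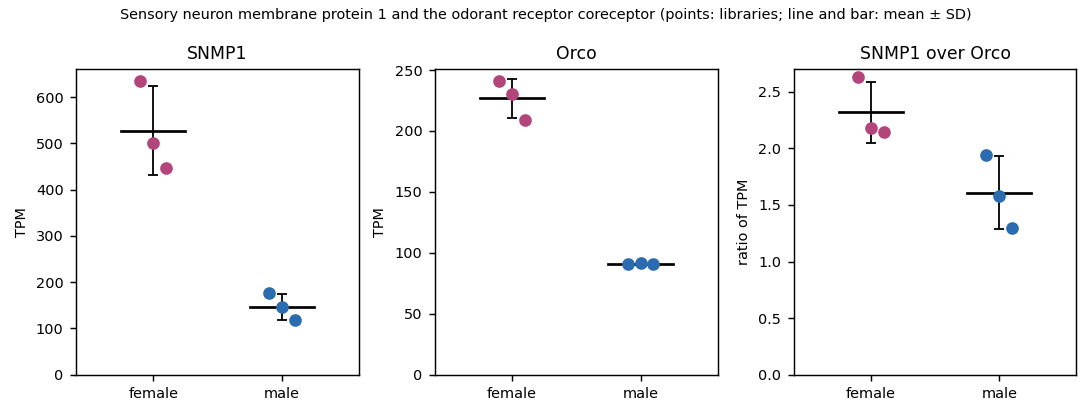
TPM of SNMP1, TPM of Orco and the ratio of SNMP1 to Orco, each with a point per library, females left and males right, and the mean with SD as a line and bar. All 3 females stand above all 3 males in each panel.

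The scavenger receptors of class B share the CD36 domain with SNMP1 and are known for lipid uptake in other tissues. One of them (TRINITY_DN25504_c0_g2) was matched in Swiss-Prot to SNMP2 of the moth Ostrinia furnacalis, a protein that in moths lies mainly in support cells. It had 269.17, 309.23 and 293.24 TPM in females, against 189.61, 229.42 and 176.78 TPM in males. The sexes did not overlap, and the log2 difference was 0.46 (SE 0.098, 95% interval 0.24 to 0.67), or 1.37-fold, with an adjusted p of 0.033 by edgeR. That call was lost without female 2 (adjusted p = 0.18), female 3 (0.0802), male 1 (0.147) or male 3 (0.0976).

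TRINITY_DN24414_c0_g1 had 61.55, 80.94 and 68.19 TPM in females, against 53.53, 46.07 and 44.26 TPM in males, and stood just outside the threshold (log2 0.48, SE 0.113, adjusted p = 0.056 by edgeR). DESeq2 called it higher in females, with an adjusted p of 0.0025. The remaining 3 of this name were not called. TRINITY_DN26624_c2_g11 averaged 98.6 TPM in females and 87.5 TPM in males, and TRINITY_DN24768_c0_g2 56.6 TPM in females and 42.7 TPM in males. The third, TRINITY_DN26410_c1_g14, which Swiss-Prot matched to lysosome membrane protein 2, averaged 36.9 TPM in females and 41.6 TPM in males. The libraries of the sexes overlapped in all 3.

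The unigene named sensory neuron membrane protein 2-like (TRINITY_DN25370_c1_g5) was rare. It had 6, 6 and 8 counts in females against 24, 21 and 11 counts in males, with a log2 difference of -1.53 (SE 0.424) that missed the threshold (adjusted p = 0.109 by edgeR). The filter passed it through the male libraries alone, and with component sums its difference was -0.0051. The 7 carriers of this CD36 type summed to 1081 ± 94.8 TPM in females and 568 ± 59.7 TPM in males (SD, n = 3 each), a ratio of 1.9. SNMP1 contributed 48.8% of the female sum and 25.8% of the male sum. On the log2 scale in CPM the summed difference was 0.68, and 0.315 with SNMP1 left out, an alternative chosen after the values were seen. These sums cover only unigenes matched by description. Another 2 unigenes with the CD36 domain, both described as protein croquemort, are not in them. TRINITY_DN25015_c0_g1 averaged 107.0 TPM in females and 96.5 TPM in males, and TRINITY_DN24947_c2_g1 55.3 TPM in females and 54.5 TPM in males. Neither was called.

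Lipocalins are barrel-shaped proteins that carry small hydrophobic molecules, and apolipoprotein D is the vertebrate member after which these unigenes were named. Of 7 unigenes 6 were tested and 1 was called. That one (TRINITY_DN26627_c1_g3, nearest to Cotesia chilonis) had 38.49, 40.87 and 35.55 TPM in females, against 25.18, 24.70 and 24.56 TPM in males. Females lay above males throughout, with a log2 difference of 0.69 (SE 0.091, 95% interval 0.49 to 0.89), or 1.61-fold, and an adjusted p of 0.002 by edgeR.

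The most abundant lipocalin was TRINITY_DN25363_c2_g1, with 1185.55, 1091.44 and 1319.80 TPM in females, against 812.27, 876.14 and 1029.99 TPM in males. The sexes overlapped in CPM, and its log2 difference of 0.30 (SE 0.111, 95% interval 0.05 to 0.54) was not called (adjusted p = 0.283 by edgeR). TRINITY_DN331_c0_g1 had 51.69, 39.69 and 42.15 TPM in females, against 50.53, 67.47 and 45.49 TPM in males (log2 -0.39, SE 0.149, adjusted p = 0.29 by edgeR). TRINITY_DN25696_c0_g1 averaged 11.5 TPM in females and 7.36 TPM in males, and was called higher in females by DESeq2 (adjusted p = 0.035) but not by edgeR (adjusted p = 0.163). The remaining 2 tested, TRINITY_DN25165_c4_g15 and TRINITY_DN7776_c0_g1, averaged 5.81 and 1.78 TPM in females and 7.35 and 1.65 TPM in males. The untested TRINITY_DN25165_c4_g13 had between 5.66 and 15.5 counts per library. All 7 together gave 1308 ± 115 TPM in females and 1010 ± 109 TPM in males (SD, n = 3 each).

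Over the 6 families, the carriers summed to 32010 ± 1155 TPM in females and 30729 ± 3115 TPM in males, a ratio of 1.04, of which the odorant-binding unigenes made up the greatest part. Carriers held between 1.25% and 1.32% of all counts in females and between 1.09% and 1.22% in males.

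**Figure D5:**
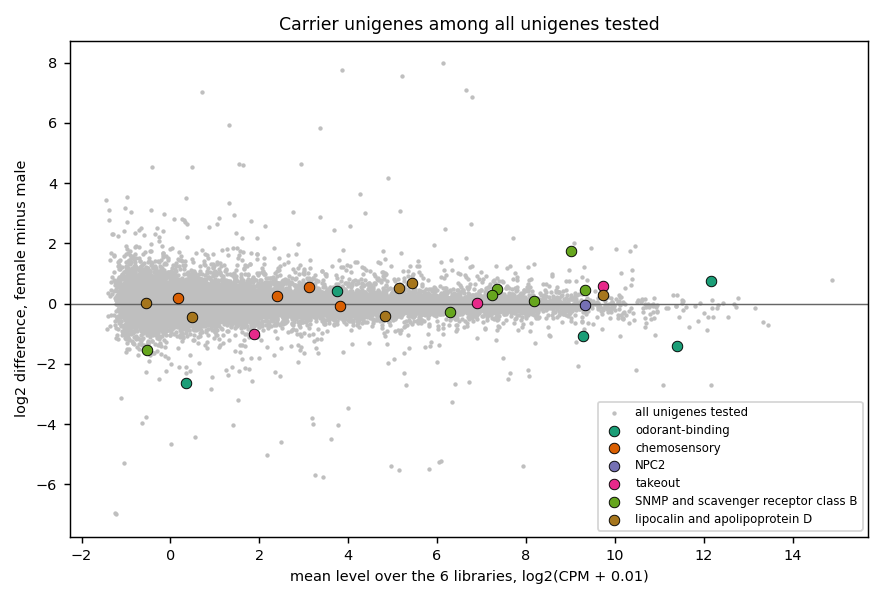
Log2 difference (female minus male, vertical axis) of all 21196 unigenes tested against their mean level over the 6 libraries, log2(CPM + 0.01), with the tested carriers as larger points. Odorant-binding protein 10 and 56d lie at the right, on opposite sides of 0.

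Gene families known to act beside such carriers were counted in lists set by description. How many list members passed the filter through 1 sex alone was not counted. Odorant receptors, the channels around which some carrier families act, numbered 136 unigenes, of which 101 were tested. Of these 36 were called in the female direction and 5 in the male direction (40.6%, against 2.80% of all unigenes tested). The median log2 difference was 0.53. An odorant receptor 13a-like unigene (TRINITY_DN26448_c0_g5) averaged 28.7 ± 6.68 CPM in female heads, against 0.126 ± 0.0606 CPM in male heads (adjusted p = 2.46e-07 by edgeR). With 3, 1 and 3 counts in males, it was passed by the filter through the female libraries alone, which in part fixes its difference. A receptor 46a-like unigene (TRINITY_DN26562_c0_g6) averaged 1.01 ± 0.287 CPM in female heads, against 4.82 ± 0.264 CPM in male heads (adjusted p = 0.00062 by edgeR). Both ionotropic receptors tested, of 3 unigenes, were called higher in females. Of 11 gustatory receptors tested 3 were called (27.3%), 2 higher in females and 1 in males.

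Esterases and aldehyde oxidases, families with members that degrade odorants in antennae, had 9 unigenes tested, with 1 called in each direction and a median of 0.08. The share called was 22.2%, against 2.80% of all unigenes tested. An esterase FE4-like unigene (TRINITY_DN25390_c3_g7) averaged 1836 ± 164 CPM in female heads, against 838 ± 80.8 CPM in male heads (2.19-fold, adjusted p = 0.00011 by edgeR). Among 11 other lipid carriers tested, the apolipophorins unigene was called higher in males (9.09% called) and none higher in females, with a median of -0.054. The Niemann-Pick C1 unigene (TRINITY_DN26178_c0_g4), partner of NPC2 in sterol export, averaged 561.6 ± 24.3 CPM in females and 475.7 ± 20.2 CPM in males and was not called (log2 0.24, adjusted p = 0.18 by edgeR).

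The summed levels of muscle and fat body markers, like those of neurons and glia given above, did not overlap between the sexes. Muscle markers summed to 16225.9 to 22918.5 CPM in females and 23759.3 to 26920.5 CPM in males, with 4 of 33 tested called higher in males. Fat body markers summed to 6233.3 to 6887.1 CPM in females and 7876.2 to 7975.7 CPM in males. Of 7 tested, 2 were called higher in females and 1, the apolipophorins unigene, higher in males. That unigene alone averaged 3717 ± 356 CPM in females and 5048 ± 365 CPM in males, a large part of the sum. By log2 difference the 7 went mostly the other way, with 6 above 0, 1 below and a median of 0.59. The share called was 12.1% of muscle and 42.9% of fat body markers tested, against 2.80% of all unigenes tested. No listed marker unigene was at 0 in every library, but neither was any of the 41986 unigenes, so this says nothing about the tissue. The part of tissue makeup in the carrier differences was not tested.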

How the data were processed

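Poly(A) RNA of heads was sequenced in 3 female and 3 male libraries, grouped by the sex in the labels. Per the labels' protocols, reads were cleaned with Cutadapt and assembled with Trinity 2.4.0, the longest transcript of a cluster being its unigene. The read counter is not given in the sources used here. The deposited table holds expected counts per unigene, which the authors estimated and, per the file headers, did not normalize. Between 8.8% and 9.5% of values were not whole, and all were rounded. It also holds TPM, computed by the authors within each library, and the authors' deposited log2 fold change, p-value and FDR, set beside the calls made here.

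Counts were tested in R 4.3.3 with edgeR 4.0.16 (TMM scaling, quasi-likelihood test, Benjamini-Hochberg adjustment over the 21196 unigenes that filterByExpr kept at its defaults of 10 counts and 15 in total). The biological coefficient of variation was 14.49%. DESeq2 1.42.0 was an alternative, and Python 3.11.15 made tables and plots. The steps were tested on simulated counts. TPM and family sums were described without a test. Replicate numbers of females and males share no source in the labels, and deviations of same-numbered libraries did not correlate (-0.019, -0.07 and -0.009), so samples were not paired. Intervals cover 95%. No sequence was in the files used here.

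The members and lists were chosen with earlier results of these data known. Named unigenes were every carrier past the threshold, the 3 highest by TPM and the smallest p in each family, and in other lists the smallest p in each direction. The other carriers are given for completeness. Alternatives were DESeq2 size factors and test, no filter, a stricter filter of 1 CPM in 3 libraries, a replicate block, each library left out, no vertebrate hits, component sums, TPM in place of CPM and each family without its highest member.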

Additional observations from a re-analysis of the deposited data

How the results depend on the processing

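With a replicate block, the pairing by number gave 8 carrier calls (5 higher in females, 3 in males), 576 over all unigenes and 44 over the other lists, against 8, 593 and 50 without it, and it changed no carrier call. The carrier count was between 7 and 10 when a library was left out, 11 with DESeq2's test, 9 with component sums and 9 without vertebrate hits. Over all unigenes 817 were called by DESeq2, 339 with component sums and between 357 and 688 with a library left out (358 without female 2, 357 without male 2). Over the other lists, component sums gave 28 (23 higher in females, 5 in males) and libraries left out between 33 and 44, with 33 without male 2. Component sums test fewer features. Family sums on the log2 scale moved with the highest member left out. They became -1.32 against -0.089 for odorant-binding proteins and 0.42 against 0.19 for chemosensory proteins. Takeout gave 0.0094 against 0.52, and the CD36-type carriers gave 0.80 against 0.68. The highest of those carriers in CPM is TRINITY_DN25504_c0_g2. Without SNMP1 their sum was 0.315, an alternative chosen after the values were seen. In TPM the family sums were 0.049 against -0.035 for NPC2, 0.62 against 0.52 for takeout and 0.93 against 0.68 for CD36-type carriers. Of 336 recomputed values of the tested carriers 313 kept direction and side of the threshold, 8 newly passed, and 4, all of the SNMP2-matched scavenger receptor TRINITY_DN25504_c0_g2, no longer passed. In 11 the direction reversed. Past the threshold, odorant-binding protein 14 (TRINITY_DN26093_c0_g9), summed with the abundant odorant-binding protein 18 of its component, was -0.83 (adjusted p = 0.00012 by edgeR) against 0.43 alone. The other 10 were not called either way. With a library left out, TRINITY_DN25513_c0_g2 lay between -0.10 (without female 3) and 0.35, against 0.21, and takeout TRINITY_DN26305_c0_g12 between -0.23 (without male 2; -0.16 without female 2) and 0.20, against 0.012. TRINITY_DN25421_c3_g7 gave 0.018 without male 3 and 0.055 with component sums, against -0.061. TRINITY_DN7776_c0_g1 gave -0.0088 with the replicate block and between -0.18 (without male 1) and 0.29 (without male 3) with a library left out, against 0.01. Counts under about 10 per library limit the rarest carriers.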

Other observations

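Relatives of the carriers whose descriptions lack the chosen words were looked up after the values were seen, by protein domain (21 unigenes) or by the spelling "odorant binding" without a hyphen (3). Of these 24, 18 were tested, and 2 were called higher in females and 0 higher in males by edgeR. Of all unigenes tested 2.8% were called. Among the 18, 8 had an unadjusted p under 0.05 (44.4%, against 12% of all unigenes tested), and the median log2 difference was 0.07. A unigene named venom protein Ci-14a (TRINITY_DN22704_c0_g2), which holds the OS-D domain of chemosensory proteins, averaged 15537.6 ± 373 TPM in females and 12697.7 ± 375 TPM in males (SD, n = 3 each) and ranked 4 by mean TPM among all unigenes. Swiss-Prot matched this unigene to ejaculatory bulb-specific protein 3 of Drosophila. Its log2 difference was 0.18 and was not called (adjusted p = 0.47 by edgeR). It alone exceeded the summed level of the 4 chemosensory carriers, 53.4 TPM in females and 42.4 TPM in males.

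An odorant binding protein 3 unigene (TRINITY_DN19776_c1_g1) averaged 21.3 ± 0.953 TPM in females and 11.7 ± 1.4 TPM in males and was called higher in females (log2 0.76, adjusted p = 0.019 by edgeR). The other call was a unigene with the OS-D domain that is described as the E3 ubiquitin-protein ligase DCST1 (TRINITY_DN23784_c0_g2), at 11.1 ± 0.943 TPM in females and 7.08 ± 0.695 TPM in males (log2 0.54, adjusted p = 0.013 by edgeR). An odorant binding protein 8 unigene (TRINITY_DN25372_c3_g7), of the Trinity component that holds odorant-binding protein 10, averaged 57.9 ± 4.74 TPM in females and 53.2 ± 1.88 TPM in males, with a log2 difference of 0.0069 (adjusted p = 0.991 by edgeR).

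The 7 unigenes with carrier words and a vertebrate best hit were all nearest to mouse, and none was called by edgeR or counted among the carriers.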
